A study of Homo sapiens with 5 samples.

Results

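Nucleolar ribosome biogenesis factors are the proteins that make, fold, modify and trim ribosomal RNA and assemble it with ribosomal proteins. The table of translation efficiency changes held 70 of them among 6309 genes, chosen by gene name. No measured value entered the naming rule, but the list was chosen with earlier results of these data known. The names cover the NOP, NOL, NOC, UTP, RRP, TSR and RIOK series and single factors such as nucleolin (NCL), nucleophosmin (NPM1) and fibrillarin (FBL). All 70 names matched RefSeq (GRCh38.p14), and no further gene joined when older names were replaced by current symbols.

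All values come from 1 established human cell line, wild-type HL-60, which was derived from a promyelocytic leukaemia. One group received decitabine, a deoxycytidine analogue that traps DNA methyltransferases, in doses of 100 nM given at 0 hours and repeated at 24 and 48 hours, and the control group received the solvent DMSO. Both were lysed at 72 hours. Per the labels, each treatment had 2 libraries of total RNA, and the ribosome-protected fragments were sequenced as 1 pool. The table listed all 11 promyelocytic markers looked for, MPO and ELANE among them, and none of 13 T-cell, B-cell, erythroid, stromal or epithelial markers, which shows presence in the table and not a level.

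Translation efficiency relates the mRNA fragments shielded by ribosomes to the total mRNA of the same gene. The authors' deposited table gives 1 coefficient per gene for decitabine against DMSO, read here as positive when efficiency was higher with drug, and its p-value. The coefficient is a log value whose base is not stated; it was taken as a natural log. Values per library were not analysed here and their depth is unknown, so each error is the standard error that the p-value implies, and no SD or n stands beside it. The wells were seeded in duplicate with no statement that separate cultures were used, so the spread behind a p-value may be technical. The labels show the ribosome-protected fragments only as 1 pool. How many footprint replicates per treatment stand behind a coefficient and its p-value is therefore unknown here. A gene was called at an adjusted p below 0.05 over all 6309 genes.

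In the nucleolus, RNA polymerase I transcribes a long precursor of ribosomal RNA. Small nucleolar ribonucleoproteins (snoRNPs) modify it, the small-subunit processome folds and cleaves its 5′ part, and separate sets of factors build the precursors of the 60S and 40S subunits. Rapidly dividing leukaemia cells are known for large nucleoli and high ribosome output.

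Because translation can depend on the first bases of an mRNA, the annotated starts were read first. Ribosomal protein mRNAs begin with a terminal oligopyrimidine (TOP) motif, and a start was counted as TOP-like here if its first base was C and at least 4 further C or T followed without a break, on the strand of the mRNA only. Of 59 factors with a start in the RefSeq table, 6 had such a start (10.2%), against 7.76% of 5285 genes of the table and 69.4% of 49 cytosolic ribosomal proteins. An annotated start need not be the one HL-60 cells use, and a gene with several annotated starts was counted if any of them matched. The 6 TOP-like starts are printed here as 10 bases before and 20 bases from the start, 5′ to 3′ on GRCh38.p14, with the unbroken pyrimidine run in capitals. They are followed by the annotated starts of NCL and DNTTIP2, which carry the clearest changes and have no such run.
NPM1 (chr5:171387839-171387868, plus strand): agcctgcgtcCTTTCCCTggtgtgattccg
FBL (chr19:39846360-39846389, minus strand): cgcctgcgctCTTTTCCacgtgcgaaagcc
NOP53 (chr19:47745536-47745565, plus strand): tggctgagttCTTCCTTTgacaagatggcg
NOB1 (chr16:69754907-69754936, minus strand): gcgcgctcccCTCTCacgcagccaacatgg
UTP14A (chrX:129906154-129906183, plus strand): aaattgctttCCTTCggcttccgttcttgg
EBNA1BP2 (chr1:43172551-43172580, minus strand): tcccctttccCCTCCCCCggggtcctcctc
NCL (chr2:231464465-231464494, minus strand): ctttcgcctcagtctcgagctctcgctggc
DNTTIP2 (chr1:93879187-93879216, minus strand): gttctctgacgcatttccggagcgccaggg
EBNA1BP2 and NPM1 each have a second annotated start without a run.

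Few of the factors changed singly, and those that did went both ways. Of the 70, the authors' deposited table had 3 higher with decitabine, NCL, NOLC1 and EBNA1BP2, and 1 lower, DNTTIP2; the other 66 did not pass. That is 5.71% of the factors called, against 0.808% of all genes; for higher calls the shares were 4.29% and 0.634%, and for lower calls 1.43% and 0.174%. The factors had smaller errors than the table as a whole, with a median implied SE of 0.20 against 0.25, and a call depends on that error. The 105 other ribosome biogenesis and RNA polymerase I genes, described below, had a median implied SE of 0.21 and no call. Whether the errors bear on the shares of calls was not tested. At an unadjusted p below 0.05, 11 factors were above 0 (15.7%, against 8.35% of all genes) and 3 below (4.29%, against 1.95%).

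The middle of the group lay close to that of other genes. The median coefficient of the 70 factors was 0.12, and that of all genes was 0.09 in the authors' deposited table. Of the factors, 42 lay above 0 and 28 below, and 36 lay above the median of all genes and 34 below it. The 25% of all genes with the highest coefficients included 16 factors and the 25% with the lowest included 19. The interquartile range of the factors ran from -0.12 to 0.22, and that of all genes from -0.08 to 0.26. Since the median of all genes was not 0, values were also read relative to it: the 95% intervals of 55 factors included that median, those of 8 lay above it (11.4%, against 3.69% of all genes) and those of 7 below it (10%, against 4.25%).

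**Figure D1:**
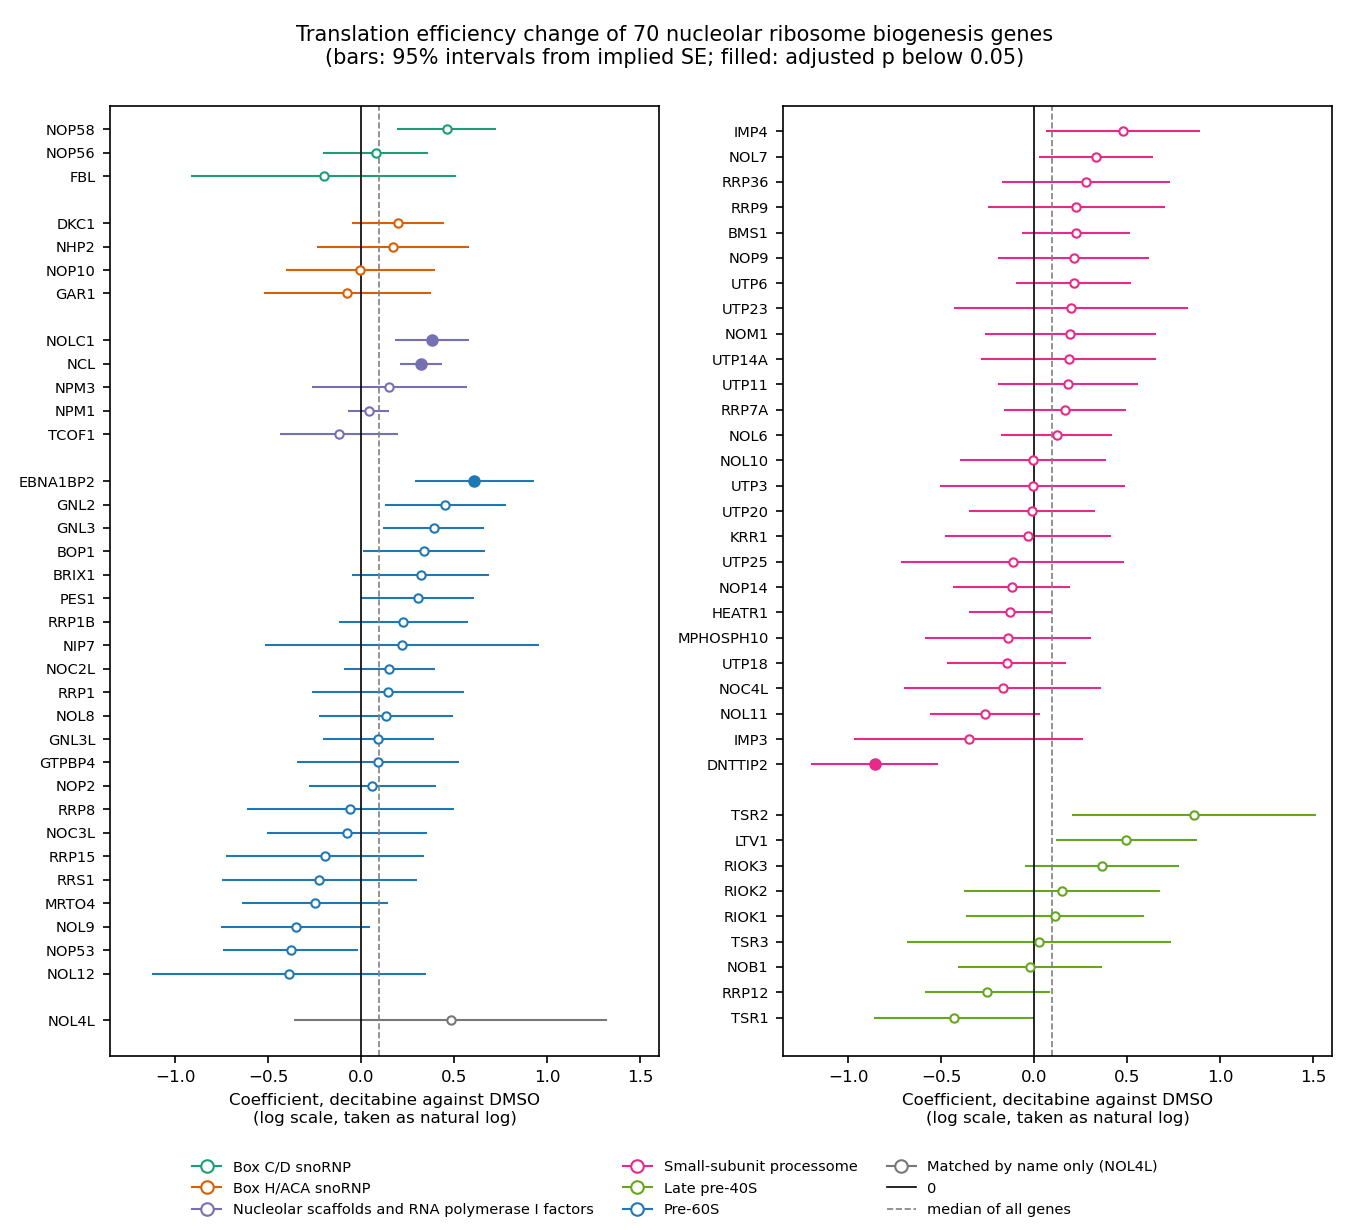
Coefficient of each of the 70 factors (points) with its 95% interval from the implied standard error (bars), on the log scale of the authors' deposited table, grouped by role; filled points passed an adjusted p of 0.05, the solid line is 0 and the dashed line is the median of all genes, 0.09. NCL, NOLC1 and EBNA1BP2 lie to the right of both lines and DNTTIP2 to the left, while most intervals span them.

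Nucleolar scaffolds included 2 of the 3 higher calls. NCL encodes nucleolin, an abundant RNA-binding protein that coats nascent ribosomal RNA, and its gene lies on chromosome 2 from 231453531 to 231464484 (whole-gene span, hg38). In the authors' deposited table NCL rose by 0.32 ± 0.06 (implied SE), with an adjusted p of 1.79e-05. On a natural log scale this is 1.38 times the DMSO level, and it would be 1.25 times if the coefficient were a log2 value. NCL passed again when the median of all genes was subtracted from the authors' coefficients, with 0.22 (adjusted p = 0.0219). It was 1 of 5 genes in the whole table that passed as higher on that scale (0.0793%).

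NOLC1 encodes Nopp140, a phosphoprotein that shuttles between nucleolus and Cajal bodies and binds snoRNPs (chromosome 10 from 102152389 to 102163870). In the authors' deposited table NOLC1 rose by 0.38 ± 0.10 (implied SE), with an adjusted p of 0.0309, which is 1.46 times the DMSO level on a natural log scale. With the median subtracted from the authors' values it had 0.28 and no longer passed (adjusted p = 0.264). TCOF1, encoding treacle, the related phosphoprotein that supports RNA polymerase I, was at -0.12 ± 0.16 in the authors' deposited table (adjusted p = 0.858). The difference of NOLC1 minus TCOF1 was 0.50 (95% interval 0.13 to 0.87).

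NPM1 encodes nucleophosmin, the histone and ribosomal protein chaperone of the outer nucleolus. It had the smallest error of all 70 factors and, in the authors' deposited table, a coefficient of 0.04 ± 0.06 (implied SE; adjusted p = 0.868). Its 95% interval, -0.07 to 0.15, leaves out the value of NCL. The difference of NCL minus NPM1, the 2 best-measured factors, was 0.28 (95% interval 0.12 to 0.44). That interval takes the 2 errors as independent and is not adjusted for the number of pairs. The pair was also listed with earlier results of these data known. RefSeq names 50 pseudogenes after NPM1 and 2 after NCL, and the sources used here do not say to which copy shared reads were assigned. NPM3, a nucleophosmin relative, had 0.15 ± 0.21 in the authors' deposited table.

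**Figure D2:**
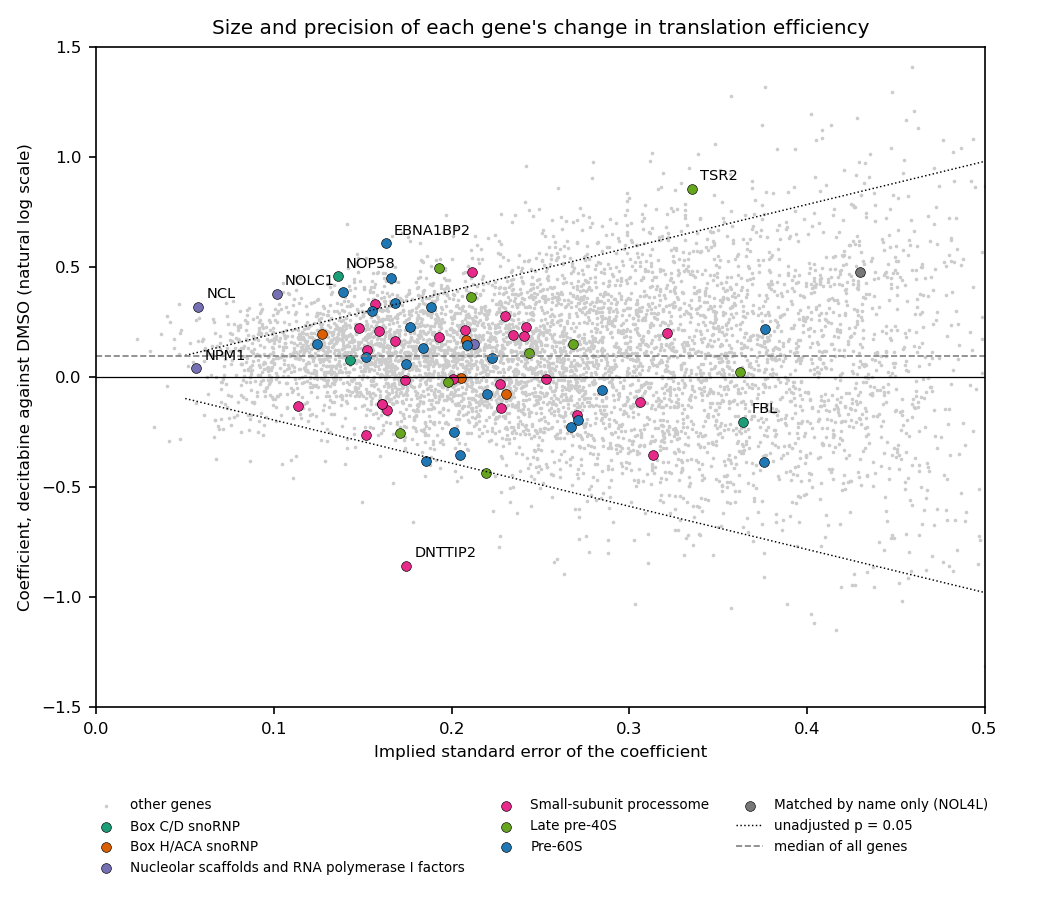
Coefficient of each gene (vertical axis, natural log scale) against its implied standard error (horizontal axis) in the authors' deposited table, with the 70 factors coloured by role over other genes in grey; dotted lines mark an unadjusted p of 0.05, and 84 other genes lie outside the axes. NCL and NPM1 sit at the left edge with the smallest errors and different heights, and DNTTIP2 lies alone at the bottom among the factors.

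The core proteins of snoRNPs did not pass. Box C/D snoRNPs place 2′-O-methyl groups on ribosomal RNA through the methyltransferase fibrillarin, held by NOP56 and NOP58. In the authors' deposited table NOP58 came closest to a call of all factors that did not pass, at 0.46 ± 0.14 with an adjusted p of 0.0672. Its partner NOP56 was at 0.08 ± 0.14 in the authors' deposited table (adjusted p = 0.916). NOP56 minus NOP58 was -0.38 (95% interval -0.77 to 0.00312). In the authors' deposited table FBL was at -0.20 ± 0.36 (adjusted p = 0.908), an error among the largest of the group, and its 95% interval ran from -0.92 to 0.51.

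Box H/ACA snoRNPs convert uridine to pseudouridine. Their pseudouridine synthase dyskerin, DKC1, was at 0.20 ± 0.13 in the authors' deposited table (adjusted p = 0.618). The 3 small proteins of the same particle, NHP2, NOP10 and GAR1, had 0.17, -0.01 and -0.08 there, with implied SEs of 0.21, 0.21 and 0.23. None of the differences of DKC1 from these partners had a 95% interval that left out 0, and the widest ran from -0.24 to 0.79, for GAR1.

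The small-subunit processome held the lower call. This large assembly forms on the 5′ part of the precursor and contains the U3 snoRNP and the UTP complexes. DNTTIP2, a nucleolar processome factor first known as a partner of terminal deoxynucleotidyl transferase (chromosome 1 from 93866284 to 93879206), fell: its coefficient in the authors' deposited table was -0.86 ± 0.17 (implied SE), with an adjusted p of 0.000457. This is 0.424 times the DMSO level on a natural log scale, or 0.552 times if the value were log2. Its coefficient ranked 37 from the lowest of 6309 genes. With the median subtracted from the authors' values DNTTIP2 had -0.95 (adjusted p = 4.20e-05), where 0.507% of all genes passed as lower. No other RefSeq gene overlaps DNTTIP2, and no pseudogene is named after it.

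The other 25 processome members that the naming rule took in did not pass, and 13 of the 26 lay above 0 and 13 below. This set is chosen by name and is not the whole processome. The median of the set was 0.06 in the authors' deposited table and -0.04 relative to the median of all genes, and 9 of the 26 were among the lowest 25% of all genes against 3 among the highest 25%. IMP4, an RNA-binding member of the MPP10 complex, was at 0.48 ± 0.21 in the authors' deposited table (adjusted p = 0.392). Its complex partners had lower values in the authors' deposited table, -0.14 ± 0.23 for MPHOSPH10 and -0.35 ± 0.31 for IMP3. IMP3 minus IMP4 was -0.83 (95% interval -1.57 to -0.09) and MPHOSPH10 minus IMP4 was -0.62 (-1.23 to -0.01), although none of the 3 passed singly.

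NOL7, a small processome protein, was at 0.33 ± 0.16 in the authors' deposited table (adjusted p = 0.421). NOL11, a UTP complex member that supports transcription by RNA polymerase I, was at -0.27 ± 0.15 in the authors' deposited table (adjusted p = 0.561). HEATR1, the largest scaffold of that complex and one of the better-measured factors, was at -0.13 ± 0.11 in the authors' deposited table (adjusted p = 0.757). These values lie on both sides of 0, and each error leaves room for changes of similar size. The GTPase-like factor BMS1 had 0.22 ± 0.15 and the U3 protein RRP9 0.23 ± 0.24 in the authors' deposited table. The values of NOL10, UTP3, UTP20 and KRR1 lay between -0.03 and -0.01.

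Further processome members lay between these. Above the median of all genes in the authors' deposited table were RRP36, NOP9, UTP6, UTP23, NOM1, UTP14A, UTP11, RRP7A and NOL6, with coefficients from 0.12 to 0.28. UTP25, NOP14, UTP18 and NOC4L lay below 0, from -0.17 to -0.12. The smallest adjusted p from the authors among these 13 was 0.699, for UTP6.

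Factors of the late 40S precursor spread widely without a call. These proteins carry the precursor out of the nucleus and make its last cut in the cytoplasm. TSR2, a chaperone that delivers the ribosomal protein RPS26, had the highest coefficient of all 70 factors in the authors' deposited table, 0.86 ± 0.34 (implied SE; adjusted p = 0.254). LTV1, an assembly factor, was at 0.49 ± 0.19 in the authors' deposited table (adjusted p = 0.252). TSR1, a GTPase-like factor, was at -0.43 ± 0.22 in the authors' deposited table (adjusted p = 0.473). LTV1 minus TSR1 was 0.93 (95% interval 0.36 to 1.50). The atypical kinases RIOK1, RIOK2 and RIOK3 had 0.11, 0.15 and 0.36 in the authors' deposited table, with implied SEs between 0.21 and 0.27. The endonuclease NOB1, which makes the final cut of 18S ribosomal RNA, had -0.02 ± 0.20 there. RRP12, an export factor, had -0.25 ± 0.17 and TSR3, which modifies a base of 18S ribosomal RNA, 0.02 ± 0.36 in the authors' deposited table.

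Factors of the 60S precursor included the third higher call. EBNA1BP2, an assembly factor of the early 60S precursor named for its binding to a viral nuclear antigen (chromosome 1 from 43164174 to 43172570), rose: its coefficient in the authors' deposited table was 0.61 ± 0.16 (implied SE), with an adjusted p of 0.0309. This is 1.84 times the DMSO level on a natural log scale, or 1.52 times if it were log2. With the median subtracted from the authors' values it had 0.51 and no longer passed (adjusted p = 0.153). Its span overlaps the protein-coding gene CFAP57 and a microRNA gene in RefSeq, and strand-specific assignment of reads is not stated in these sources.

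Of the 22 factors in this set the other 21 did not pass, 14 of the 22 lay above 0, and the median was 0.11 in the authors' deposited table. The nucleolar GTPases GNL2 and GNL3 in the authors' deposited table were at 0.45 ± 0.17 (adjusted p = 0.203) and 0.39 ± 0.14 (adjusted p = 0.190), and GNL3L at 0.09 ± 0.15. GNL3, also called nucleostemin, is known for high levels in stem and cancer cells; GNL3 minus GNL3L was 0.30 (95% interval -0.11 to 0.70). BOP1 and PES1, which act together in the PeBoW complex that processes 28S ribosomal RNA, were at 0.34 ± 0.17 and 0.30 ± 0.16 in the authors' deposited table (adjusted p = 0.466 and 0.488). They were close to each other, with a difference of 0.04, but its 95% interval of -0.41 to 0.48 is wide.

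The low end of the 60S set held NOP53, NOL12 and NOL9. NOP53, which brings the RNA exosome to the precursor, was at -0.38 ± 0.19 in the authors' deposited table (adjusted p = 0.452). The polynucleotide kinase NOL9 was at -0.35 ± 0.20 and the nuclease NOL12 at -0.39 ± 0.38 in the authors' deposited table (adjusted p = 0.567 and 0.778). BRIX1, RRP1B, NIP7, NOC2L, RRP1, NOL8, GTPBP4 and NOP2 had coefficients from 0.06 to 0.32 in the authors' deposited table, and RRP8, NOC3L, RRP15, RRS1 and MRTO4 from -0.25 to -0.06. The smallest adjusted p from the authors among these 13 was 0.571, for BRIX1. NOL4L, which the naming rule also takes in, is not known as a ribosome biogenesis factor and was at 0.48 ± 0.43 in the authors' deposited table (adjusted p = 0.766), the largest error of the 70.

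**Figure D3:**
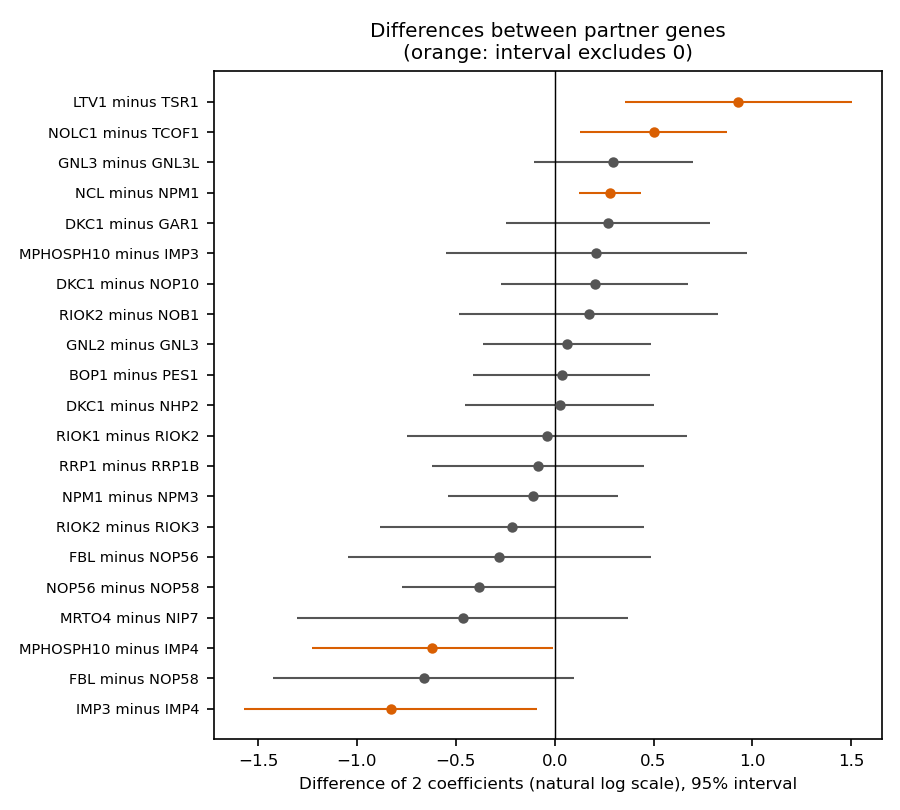
Difference of 2 coefficients for each of 21 pairs of factors of the same role (points), with 95% intervals from the implied standard errors taken as independent (bars), on the natural log scale; orange marks the 5 pairs whose interval leaves out 0. The highest difference is LTV1 minus TSR1, at 0.93, and the intervals of 16 pairs include 0.

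Differences between factors of the same role had a 95% interval that left out 0 in 5 of 21 pairs. These were LTV1 and TSR1, NOLC1 and TCOF1, NCL and NPM1, and IMP4 against each of IMP3 and MPHOSPH10, all given above. The intervals are not adjusted for the number of pairs and take the errors of 2 genes as independent. The pairs were written down with earlier results of these data known. No such share was computed for other pairs of genes, so the count does not show whether these pairs differ unusually often. Both pairs with IMP4 rest on the same IMP4 value. A further listed pair, NCL with DNTTIP2, joined the strongest call of each direction across different roles and was left out.

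Some of the genes for these factors carry small nucleolar RNAs within their own spans, a feature the naming did not use. RefSeq places at least 1 snoRNA gene inside 10 of the 70 (14.3%) and inside 3.89% of the other genes of the table. Among cytosolic ribosomal protein genes the share was higher, 24 of 61 (39.3%). NOP56 and GNL3 each hold 5, NOP58 4, NCL 3 (SNORA75, SNORD20 and SNORD82), and DKC1 and TSR1 2 each, while NOP53, NOL11, UTP20 and BMS1 hold 1 each. The RefSeq table used gives no strand. These 10 factors had coefficients from -0.43 (TSR1) to 0.46 (NOP58) in the authors' deposited table, 6 above 0 and 4 below, with a median of 0.14. The 60 factors without one had a median of 0.12, with 36 above 0. NCL was the only call among the 10.

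Factors with a TOP-like start likewise lay on both sides of 0. EBNA1BP2, UTP14A and NPM1 had 0.61, 0.18 and 0.04 in the authors' deposited table, and NOB1, FBL and NOP53 had -0.02, -0.20 and -0.38. Their median was 0.01, and that of the 53 factors with other annotated starts was 0.12. Across all genes of the table the 410 with a TOP-like start had a median of 0.03 and the 4875 others 0.10; without ribosomal proteins and the nucleolar factors these medians were 0.05 (370 genes) and 0.10. Of 34 ribosomal protein genes with such a start 30 lay below 0, with a median of -0.15, and of 15 without one 11 lay below 0, with a median of -0.14. The split follows annotated starts and a strict rule. The starts that HL-60 cells use were not read here, so genes may be misplaced in either set. Whether the motif bears on these values was not tested.

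**Figure D4:**
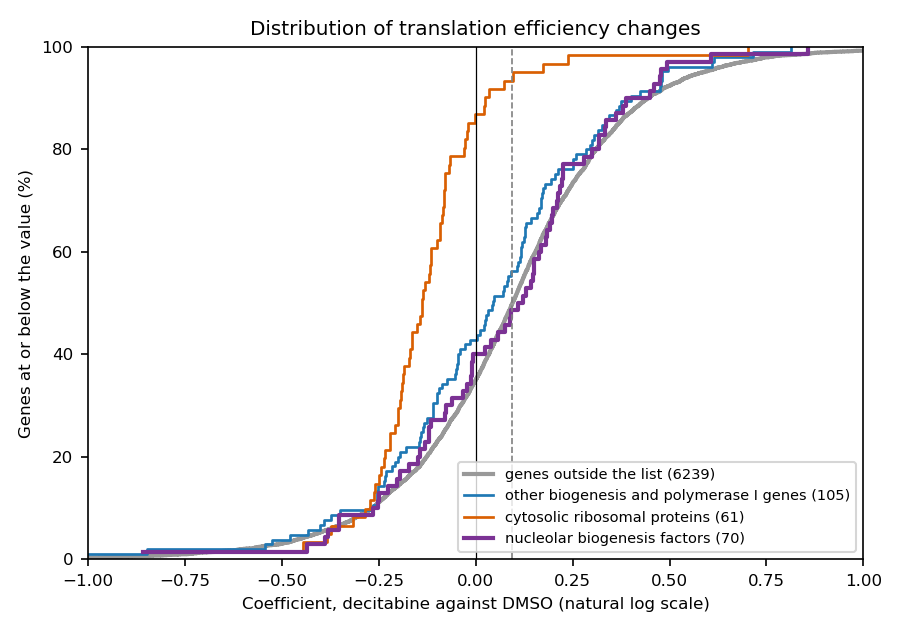
Share of genes (vertical axis, percent) at or below each coefficient (horizontal axis, natural log scale) for the 70 factors, 105 other biogenesis and RNA polymerase I genes, 61 cytosolic ribosomal proteins and all genes outside the list. The curve of the factors runs close to that of the other genes and away from that of the ribosomal proteins, whose median is -0.14.

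Cytosolic ribosomal proteins, which these factors assemble, and mitochondrial ribosomal proteins were set beside the factors. The 61 cytosolic ribosomal protein genes had a median of -0.14, with 53 below 0, and 58 mitochondrial ribosomal protein genes had a median of 0.12 in the authors' deposited table. The lowest 25% of all genes included 72.1% of the cytosolic ribosomal proteins and 27.1% of the nucleolar factors. No test of the difference between these lists was made.

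The rest of the pathway gave no call, where the share of calls among all genes was 0.808%. Of 105 other ribosome biogenesis and RNA polymerase I genes, among them nucleolar helicases and polymerase subunits, none passed at 0.05 in the authors' deposited table; at an unadjusted p below 0.05, 9 were above 0 (8.57%, against 8.35% of all genes) and 3 below (2.86%, against 1.95%). These shares are close to those of all genes. Their median was 0.04, with 60 above 0 and 45 below. In the authors' deposited table the smallest p-values of this list belonged to FTSJ3, a methyltransferase of the 60S precursor, at 0.61 ± 0.18 (adjusted p = 0.0736), and to LAS1L, which cuts the second internal spacer, at 0.47 ± 0.16 (adjusted p = 0.147). They were followed there by the helicase DDX51 at -0.85 ± 0.31 and the 60S assembly factor MAK16 at 0.81 ± 0.30, with adjusted p-values of 0.200 and 0.203 from the authors. As among the 70 factors, the genes with the smallest p-values went both ways. The coefficients of the whole list ran from -1.18 to 0.81.

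The precision of the table limits what these values can show. The implied SE of the 70 factors ran from 0.06 (NPM1) to 0.43 (NOL4L), and 10 had one below 0.15. For 66 of the 70 the 95% interval reached further than a 1.25-fold change on either side of the value, and for 32 further than a 1.5-fold change, on a natural log scale. A factor that did not pass is therefore not shown to be unchanged.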

How the data were processed

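Ribosome-protected fragments and total RNA of HL-60 cells were sequenced. Per the submitters' processing notes, Bowtie2, SAMtools 1.11, UMI-tools 1.1.1 and the build hg38 were used; the tools' roles, any count filter, the library scaling and the fitting program are not stated in these sources. The deposited coefficient is, per the file headers, a drug term with a z test, taken as a natural log. The deposited p-value, adjusted p-value and q-value are the authors'; recomputed Benjamini-Hochberg values differed by at most 6.61e-14.

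The implied standard error is the absolute coefficient divided by the z of its two-sided p-value (Python 3.11.15, SciPy). Medians and counts are descriptions; no list was tested, since genes are not replicates, and no count test was possible on this table. For centred values, the median of all genes (0.09) or the precision-weighted mean (0.09) was subtracted and p-values recomputed and readjusted. The adjustment and threshold were run on simulated coefficients drawn from the implied standard errors. That run cannot show whether those errors, or the authors' p-values, are right.

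Members, role lists, pairs and the pathway list were chosen with earlier results of these data known; UTP25 was added to its role list after the table was read. Every member may be named; other pathway genes are named by the 4 smallest p-values. Spans, starts, snoRNAs and pseudogenes (symbols of the form gene, P, number) came from RefSeq (GRCh38.p14).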

Additional observations from a re-analysis of the deposited data

How the results depend on the processing

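The table holds 1 comparison with no value per library, so leaving out a replicate and a filter on abundance could not be run. No paired analysis was possible because the columns carry no replicate numbers. Of 4 factors called (3 higher), 2 (1 higher) remained at an adjusted p below 0.01, with the Benjamini-Yekutieli adjustment and after either centring; these were NCL and DNTTIP2 each time. Leaving out factors with a named pseudogene, an alternative chosen after seeing the data, also gave 2 calls (1 higher), because NCL and NOLC1 left the list. An adjusted p below 0.1 gave 5. NOLC1 had an adjusted p of 0.0309 as deposited and between 0.0256 and 0.288 over its alternatives, and EBNA1BP2 likewise between 0.0256 and 0.288; NCL and DNTTIP2 passed under every alternative run for single factors. The other pathway list gained 1 call, FTSJ3, below 0.1.

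The median of the factors, 0.12, became 0.0204 after centring on the median and 0.0258 after centring on the weighted mean, which follows from the shift of all values, and 0.0733 without factors that have a named pseudogene. Centring on the median gave -0.0132 for box H/ACA proteins, 0.0542 for scaffolds, -0.0388 for the processome, 0.0148 for late 40S and 0.0159 for 60S factors. A precision-weighted mean gave 0.24 for box C/D proteins, 0.19 for scaffolds and 0.0132 for the processome. Without the 25% of genes with the largest errors, box C/D proteins had 0.27, since FBL left the set. Once centred on the median, the values of the processome, box C/D (-0.0192) and box H/ACA sets were below 0. The precision-weighted means of the box C/D and box H/ACA sets lay above the 0.09 of all genes. They were 0.24 (SE 0.095, 3 genes) and 0.11 (SE 0.088, 4 genes). These SEs come from the implied errors alone and leave out the spread between genes. No difference of either mean from 0.09 was tested.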
